A study of Mus musculus with 8 samples.

Results

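Desmosomes and adherens junctions hold cardiac myocytes together at the intercalated disc, where they share a mixed structure in the adult heart. Desmosomal cadherins (desmogleins and desmocollins) meet across the gap between cells and are tied through plakoglobin and plakophilins to desmoplakin, which anchors the intermediate filaments. In adherens junctions N-cadherin is tied through catenins to actin. Mutations in the human desmosomal genes cause arrhythmogenic cardiomyopathy, and in rodent myocytes loss of plakophilin-2 also disturbs connexin and sodium channel function.

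The 10 genes described here are the desmosomal genes Dsp, Dsg2, Dsc2, Pkp2 and Jup, the adherens junction genes Cdh2, Ctnna1 and Ctnna3, and Tjp1 and Cxadr, which encode a scaffold and a receptor of the disc. They were chosen by symbol: every probe set annotated to 1 of them and to no other gene was taken, which gave 30 probe sets out of 34945 that name a single gene (18193 genes). The arrays measured RNA of FACS-sorted Purkinje cells, which are the myocytes that carry the impulse through the far end of the conduction system, and of ventricular myocytes. Each of 4 hearts gave 1 Purkinje and 1 ventricular array, 8 arrays in all, so that every comparison could be made within a heart. All hearts came from adult male mice of a background that mixes the strains CD1, C57/B6 and 129S1. All of these mice carried the reporter Cntn2-EGFP, in which a gene of the conduction system drives a green label, together with a-MHC-Cre and floxed-tdTomato, in which a myocyte promoter leads to a red label. The enzymatic digestion that opens the cell contacts preceded the sort in both groups.

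Signals are MAS5 intensities on a linear scale, 1 value per probe set and array. A log2 fold change is the mean over hearts of the Purkinje minus the ventricular log2 signal, so a positive value means higher in Purkinje cells, and it was tested with limma with the heart as a block. A gene passed where its Benjamini-Hochberg adjusted p over all 12318 tested genes was under 0.05. Each gene is represented by its brightest probe set, and its other probe sets are given beside it from the same model over all 22885 tested probe sets. Array medians were 36.1 to 42.9 on the Purkinje arrays and 28.2 to 32.3 on the ventricular arrays. Pcp4, a conduction system gene, averaged 2226 ± 1431 on the Purkinje arrays and 30.5 ± 12.6 on the ventricular arrays (SD, n = 4 each), and Cntn2, whose reporter the mice carried, 866 ± 473 and 12.98 ± 8.66 on the same arrays. The myocyte genes Myh6, at 9670 ± 605 on the Purkinje arrays and 10356 ± 818 on the ventricular arrays, and Myl2, at 10568 ± 482 and 10990 ± 1128, were bright on all 8 arrays and did not pass.

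Most junction genes showed no difference between the 2 cell types that passed the test, and none differed as much as 2-fold at its brightest probe set. Of the 10 genes, Tjp1 was higher in Purkinje cells, Cdh2 and Pkp2 were lower, and 7 did not pass; over all tested genes 17.1% passed, 9.64% higher and 7.48% lower. The log2 fold changes ran between -0.37 and 0.42 among the 3 that passed and reached 0.43 in Dsc2, which did not. All 10 lay under 0.5 in size, as did 71.4% of all tested genes. The median of the 10 was -0.02, beside 0.05 over all tested genes. In all 10 the 95% interval lay within 1 log2 unit of 0, that is within a 2-fold change, which held for 64.6% of all tested genes. None of the 3 calls was made by limma without the heart block (adjusted p = 0.295 for Cdh2, 0.284 for Pkp2 and 0.101 for Tjp1), a fit that called 2.96% of all genes and in which 1 of the 10 had an unadjusted p under 0.05. None was made in the blocked fit without heart 2, 3 or 4. The calls also moved with the scaling: after quantile normalization Tjp1 and Ctnna1 were higher and none was lower, and after centring each array on its median 5 were lower and none was higher, in limma fits whose median over all genes was -0.06 and -0.35.

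**Figure D1:**
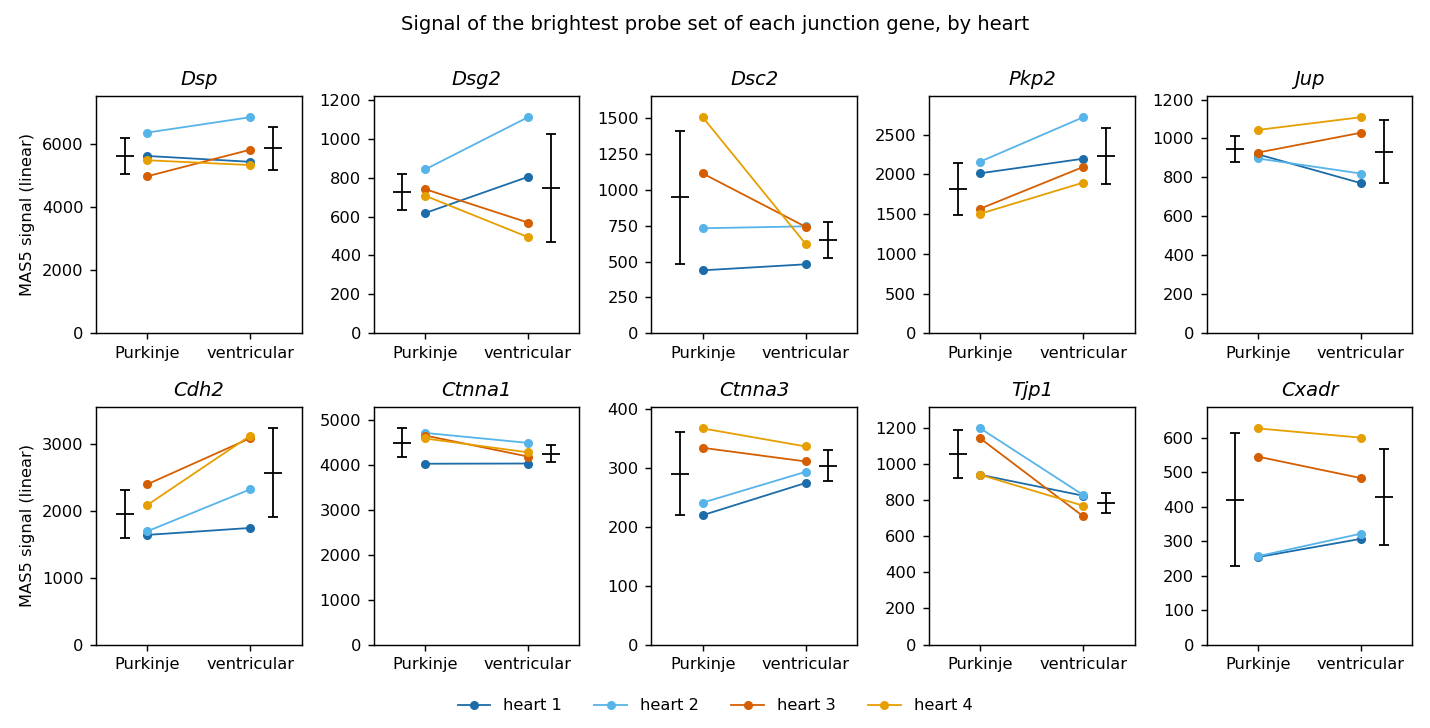
MAS5 signal (linear axis from 0) of the brightest probe set of each of the 10 junction genes on the Purkinje and the ventricular array of each heart, joined by a line, with the mean and SD of the 4 arrays in black beside each group. Tjp1 is the gene whose groups do not overlap: the Purkinje arrays lie between 940 and 1197, the ventricular arrays between 709.7 and 827.9.

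Among the classical adherens junction genes, Cdh2 encodes N-cadherin, the cadherin of cardiac adherens junctions. Its brightest probe set, 1449244_at, had signals of 1640, 1694, 2398 and 2088 on Purkinje arrays 1 to 4, against 1744, 2323, 3088 and 3125 on ventricular arrays 1 to 4. The groups overlapped, since hearts 3 and 4 were brighter than hearts 1 and 2 in both cell types, but the Purkinje array was the lower one in 4 of 4 hearts. The log2 fold change was -0.37 ± 0.10 (SE; limma adjusted p = 0.0271), which makes the signal 1.29-fold lower in Purkinje cells. Heart 1 showed the smallest difference, of -0.09, and hearts 2 to 4 lay between -0.58 and -0.36. The second probe set, 1418815_at, had 1816, 2050, 1792 and 1573 in Purkinje cells and 1831, 2501, 2035 and 1869 in ventricular myocytes. It too was lower in 4 of 4 hearts, and its log2 fold change of -0.18 did not pass (adjusted p = 0.219).

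The alpha-catenins connect the cadherin complex to actin. Ctnna1, which encodes the widely expressed alpha-E-catenin, had signals of 4023 to 4709 on the Purkinje arrays and 4028 to 4487 on the ventricular arrays at its brightest probe set. Its log2 fold change of 0.08 did not pass (adjusted p = 0.549), with a 95% interval from -0.10 to 0.26. A second bright probe set, 1448149_at, gave 0.12 (adjusted p = 0.425). The third, 1436631_at, was far dimmer, at 65.5, 82.1, 213.9 and 170.6 on the Purkinje arrays and 44.6, 53.6, 122.4 and 96.4 on the ventricular arrays. It was higher in Purkinje cells in 4 of 4 hearts, with a log2 fold change of 0.70 ± 0.21 (limma adjusted p = 0.0403, and 0.378 without the heart block). The fourth, 1437275_at, did not exceed 24.6 on any array and was not tested.

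Ctnna3 encodes alpha-T-catenin, a form found in heart and testis that also binds plakophilin-2 in mouse. Its signals were 219.6, 240.9, 334.0 and 366.9 on the Purkinje arrays and 274.3, 293.2, 310.8 and 336.3 on the ventricular arrays. Purkinje cells were lower in hearts 1 and 2 and higher in hearts 3 and 4, and the log2 fold change of -0.09 did not pass (adjusted p = 0.721). The second probe set, 1441193_at, split the hearts the same way and gave -0.03 (adjusted p = 0.952).

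Among the plaque proteins of the desmosome, Pkp2 encodes plakophilin-2, which links the desmosomal cadherins to desmoplakin. At 1449799_s_at the signals were 2013, 2160, 1568 and 1504 on Purkinje arrays 1 to 4 and 2196, 2718, 2093 and 1896 on ventricular arrays 1 to 4. Each Purkinje array was lower than the ventricular array of its heart, although the groups overlapped, and the log2 fold change was -0.30 ± 0.09 (limma adjusted p = 0.0472). Probe sets 1429183_at and 1420259_at gave larger log2 differences. At 1429183_at Purkinje cells had 1063, 1192, 1495 and 1457, against 1442, 1951, 2068 and 2074 in ventricular myocytes. That is a log2 fold change of -0.53 ± 0.10 (limma adjusted p = 0.00427), with differences between -0.71 and -0.44 in the 4 hearts. At 1420259_at they had 1273, 1313, 909.4 and 603.4, against 1578, 1719, 1239 and 1117, a log2 fold change of -0.51 ± 0.12 (limma adjusted p = 0.0131). Thus 3 of 4 probe sets of Pkp2 were lower in 4 of 4 hearts. The fourth, 1460511_at, was dim, between 51.2 and 119.0 in Purkinje cells and between 38.6 and 95.1 in ventricular myocytes. It was higher in 3 hearts and lower in 1, with a log2 fold change of 0.23 that did not pass (adjusted p = 0.652).

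Dsp encodes desmoplakin, the anchor of the intermediate filaments. Its brightest probe set had 5613, 6353, 4971 and 5477 on the Purkinje arrays and 5428, 6840, 5812 and 5324 on the ventricular arrays, a log2 fold change of -0.06 (adjusted p = 0.670). The other probe sets were lower in Purkinje cells in 4 of 4 hearts without passing. At 1435494_s_at the groups did not overlap, with 3972 to 4137 in Purkinje cells and 4142 to 4924 in ventricular myocytes, but the gap between them was small and the log2 fold change of -0.14 had an adjusted p of 0.285; 12.1% of all tested probe sets did not overlap. At 1427610_at it was -0.25 (adjusted p = 0.126). Jup encodes plakoglobin, which serves both desmosomes and adherens junctions. Its 1 probe set had 918.7, 897.4, 927.8 and 1044 in Purkinje cells and 770.6, 820.0, 1030 and 1109 in ventricular myocytes. The Purkinje array was the higher one in hearts 1 and 2 and the lower one in hearts 3 and 4, and the log2 fold change was 0.04 (adjusted p = 0.863; 95% interval -0.21 to 0.28).

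**Figure D2:**
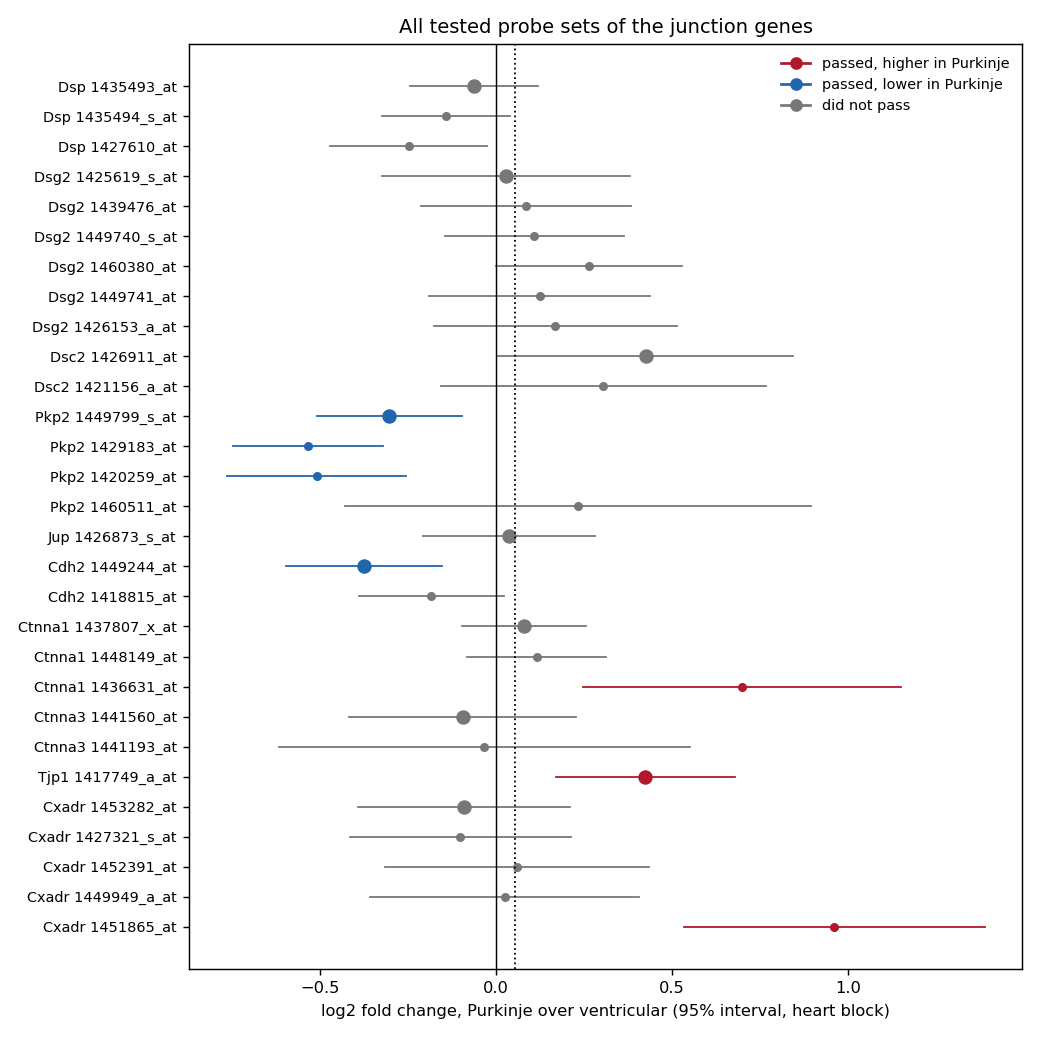
Log2 fold change, Purkinje over ventricular, of each of the 29 tested probe sets of the junction genes with its 95% interval from the blocked fit. Large points are the brightest probe set of a gene, and the dotted line is the median of all tested genes. The 3 bright Pkp2 probe sets and 1 Cdh2 probe set passed on the lower side. Tjp1, 1 dim Ctnna1 probe set and 1 Cxadr probe set passed on the higher side.

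The desmosomal cadherin genes did not pass, and their differences varied between hearts. Dsg2, which encodes the desmoglein of the heart, had signals of 617.7, 841.7, 740.8 and 707.2 on the Purkinje arrays and 803.9, 1110, 569.1 and 494.2 on the ventricular arrays. The differences were -0.38 and -0.40 in hearts 1 and 2 and 0.38 and 0.52 in hearts 3 and 4. Their mean of 0.03 did not pass (adjusted p = 0.928; 95% interval -0.33 to 0.39). All 6 Dsg2 probe sets gave log2 fold changes above 0, the highest 0.26 at 1460380_at (adjusted p = 0.168), and none passed; after median centring all 6 were below 0. That probe set was higher in 4 of 4 hearts. Dsc2, which encodes the desmocollin of the heart, had 439.1, 732.2, 1114 and 1507 in Purkinje cells and 480.9, 745.7, 742.3 and 623.2 in ventricular myocytes. Purkinje arrays 3 and 4 were the 2 brightest values, while in hearts 1 and 2 the cell types were close. The log2 fold change was 0.43 ± 0.19, which did not pass (limma adjusted p = 0.157; 95% interval 0.002 to 0.85), and without heart 1 it was 0.61 and passed (adjusted p = 0.0312). At the dimmer probe set 1421156_a_at it was 0.31 (adjusted p = 0.369), and Purkinje cells were lower in heart 1 and higher in hearts 2 to 4.

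**Figure D3:**
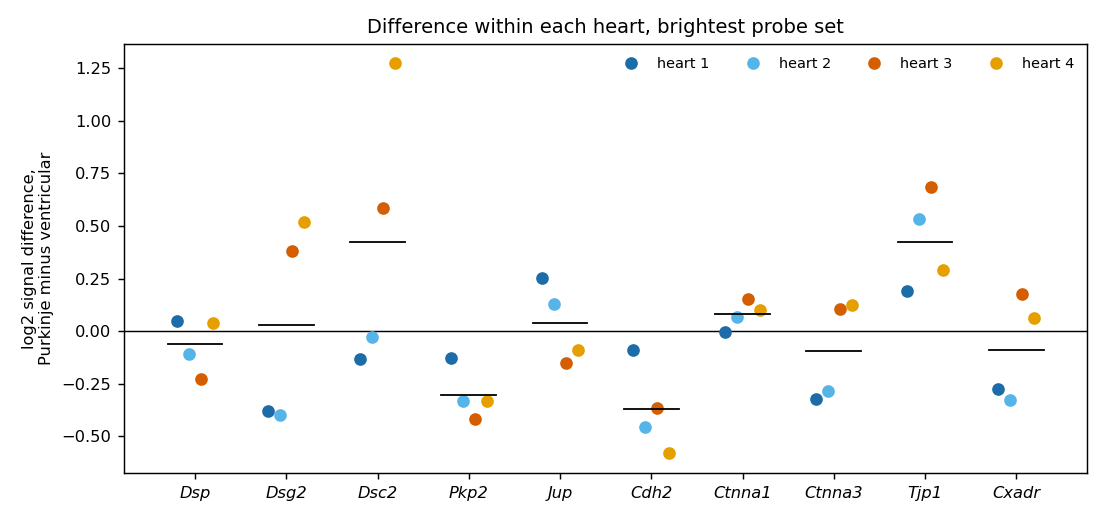
Difference in log2 signal, Purkinje minus ventricular, within each of the 4 hearts (points) at the brightest probe set of each junction gene, with the mean as a bar. Cdh2 and Pkp2 are below 0 and Tjp1 above 0 in 4 of 4 hearts, while Dsg2, Dsc2, Ctnna3 and Cxadr are below 0 in hearts 1 and 2 and above 0 in hearts 3 and 4.

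At the brightest probe set 3 of the 10 genes moved the same way in 4 of 4 hearts, beside 38.2% of all tested genes. Dsg2, Dsc2, Ctnna3 and Cxadr were lower in Purkinje cells in hearts 1 and 2 and higher in hearts 3 and 4, and Jup did the reverse. The ratio of the 3' to the 5' Gapdh control signals also separated these hearts. It was 1.24 and 1.28 on Purkinje arrays 1 and 2, 1.64 and 1.72 on Purkinje arrays 3 and 4, and 1.23, 1.20, 1.51 and 1.51 on ventricular arrays 1 to 4. The part of RNA quality in these differences was not tested.

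Tjp1 encodes ZO-1, a scaffold that binds connexins and alpha-catenin and also belongs to the tight junctions of endothelium and epithelium. Its single probe set had 940.0, 1197, 1141 and 940.3 on Purkinje arrays 1 to 4, against 824.1, 827.9, 709.7 and 768.6 on ventricular arrays 1 to 4. The groups did not overlap, which was so for 12.7% of all tested genes. The log2 fold change was 0.42 ± 0.12 (limma adjusted p = 0.0283), a 1.34-fold higher signal in Purkinje cells with a 95% interval from 1.12-fold to 1.60-fold. The differences were 0.19, 0.53, 0.69 and 0.29 in hearts 1 to 4. After centring each array on its median the log2 fold change of Tjp1 was 0.02 (adjusted p = 0.936).

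Markers of non-myocytes were also higher on the Purkinje arrays. For the counts that follow, 9.64% of all tested genes were higher and 7.48% lower in the blocked fit. The summed signal of 8 endothelial markers was 5924, 5895, 3819 and 2390 on Purkinje arrays 1 to 4 and 3459, 1541, 1084 and 1218 on ventricular arrays 1 to 4, and all 8 passed. The sum of 8 smooth muscle and pericyte markers was 4884 to 9081 in Purkinje cells and 1692 to 4677 in ventricular myocytes; 7 of them were tested and passed, and Cnn1 was too dim. Of 7 fibroblast markers 5 passed, with sums of 2327 to 3495 in Purkinje cells and 1197 to 2142 in ventricular myocytes. Without the heart block 2 markers of each of these 3 lists passed, beside 2.96% of all tested genes. The brightest members were Egfl7, Rgs5 and Dcn, with log2 fold changes of 1.19, 1.08 and 1.07. Lyz2, a macrophage gene (0.92, adjusted p = 0.0299, and 0.184 without the block), was the 1 of 3 tested leukocyte markers that passed, and none of the tested Schwann cell (brightest Ngfr, 0.30), adipocyte (Car3, 1.21) and mesothelial and epithelial markers (Krt18, 0.35) passed, 5 in all. All 8 myocyte markers had log2 fold changes below 0, from -0.29 to -0.05. Mybpc3 (-0.29, limma adjusted p = 0.0307, and 0.185 without the block) passed, and 7, among them the brightest, Tnnt2 (-0.10), did not. Of 6 tested conduction system markers 5 were higher. They include Cntn2, whose reporter the mice carried. The ventricular means of Cntn2 (12.98) and Cacna1g (10.05) lie under the signal limit, so both reached the test only through the Purkinje arrays. The ventricular signals of Car3, from 13.9 to 30.2, lie on both sides of this limit, so its value of 1.21 says little about fold size. The 6 mesothelial and epithelial markers summed to 183.3 to 268.2 on the Purkinje arrays and 70.6 to 149.4 on the ventricular arrays. These sums did not overlap, which was so for 12.7% of all tested genes taken singly. Of the 6 markers Krt8, Upk3b, Msln and Wt1 did not reach the limit for testing. Upk3b had 40.5, 78.0, 14.1 and 124.9 in Purkinje cells and 1.7, 3.0, 22.4 and 6.1 in ventricular myocytes. Msln had 6.0, 23.5, 33.7 and 14.1 against 15.3, 22.3, 7.5 and 3.9. Wt1 had 68.7, 17.4, 37.3 and 4.6 against 50.4, 2.1, 1.9 and 18.3. Upk3b, Msln and Wt1 were each higher in 3 hearts and lower in 1, and their groups overlapped. Krt8 had 13.9 to 40.3 against 0.5 to 12.6. Krt19 was higher in 4 of 4 hearts and did not pass (limma adjusted p = 0.137). Its ventricular mean of 16.1 lies under the signal limit, so Krt19 reached the test only through the Purkinje arrays and no fold is given. Cdh1, the epithelial cadherin, did not reach the limit for testing. The part of non-myocytes in the differences of Tjp1, Cdh2 and Pkp2, and of the other genes described here, was not tested. In bulk samples fewer cells of a type and less RNA per cell cannot be told apart.

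**Figure D4:**
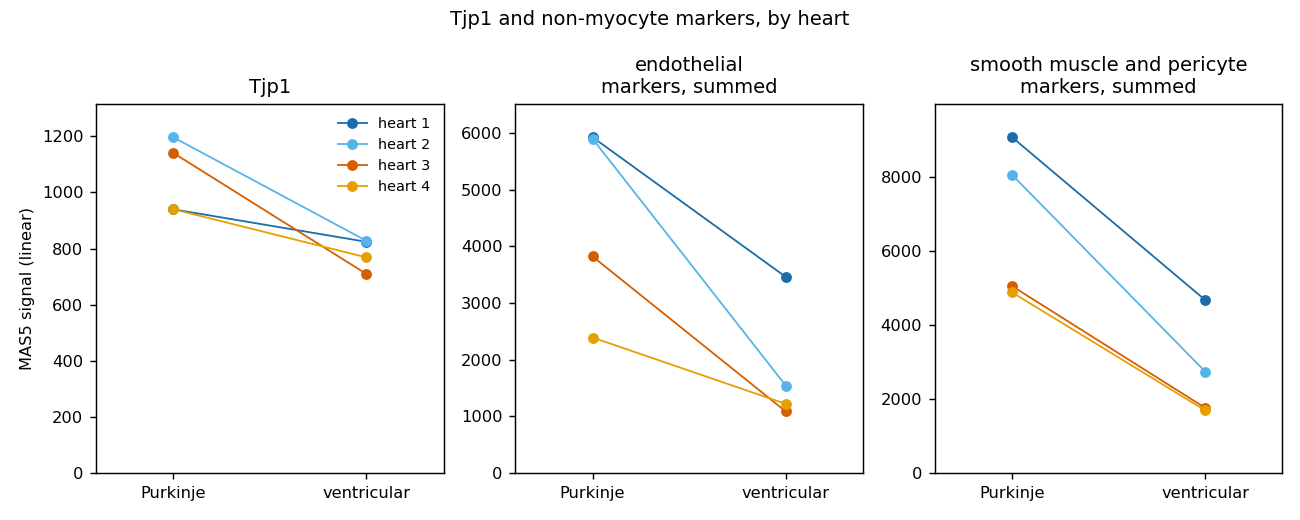
MAS5 signal (linear axes from 0) of Tjp1, and the summed signals of the endothelial and the smooth muscle and pericyte markers, on the Purkinje and ventricular array of each heart. The ventricular array of heart 1 has the highest marker sums of its group, at 3459 and 4677.

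Cxadr encodes the coxsackievirus and adenovirus receptor, an adhesion molecule of the disc that binds ZO-1. Its brightest probe set, 1453282_at, had 253.6, 256.1, 544.8 and 626.7 in Purkinje cells and 306.5, 321.5, 482.6 and 599.9 in ventricular myocytes. Hearts 3 and 4 were brighter than hearts 1 and 2 in both cell types, and the log2 fold change of -0.09 did not pass (adjusted p = 0.708). The probe sets 1427321_s_at, 1452391_at and 1449949_a_at gave -0.10, 0.06 and 0.03, with adjusted p values from 0.685 to 0.943. Unlike these, probe set 1451865_at had 123.2, 152.4, 273.6 and 513.8 in Purkinje cells and 77.8, 75.8, 179.1 and 174.5 in ventricular myocytes. It was higher in 4 of 4 hearts, with a log2 fold change of 0.96 ± 0.20, or 1.95-fold (limma adjusted p = 0.00732, and 0.249 without the heart block). Which transcripts the 5 probe sets measure was not analysed here.

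Over all probe sets of the 10 genes, 29 of 30 were above the signal limit. Of these 3 were higher, 4 were lower and 22 did not pass in the blocked fit, which called 15.1% of all tested probe sets; without the block limma called none of the 29, with 2 at an unadjusted p under 0.05, beside 2.16% of all. In the authors' deposited table, whose unadjusted p comes from a paired test, the ratio of means and p were 0.761 and 0.0496 for Cdh2 (1449244_at), 0.814 and 0.0166 for Pkp2 (1449799_s_at) and 1.35 and 0.0373 for Tjp1. Pkp2 1429183_at and 1420259_at had 0.691 and 0.00505, and 0.725 and 0.00366. Ctnna1 1436631_at and Cxadr 1451865_at, which passed in the blocked fit, had 1.68 and 0.0524, and 2.10 and 0.132. Dsp 1427610_at, which did not pass, had 0.839 and 0.0314.

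**Figure D5:**
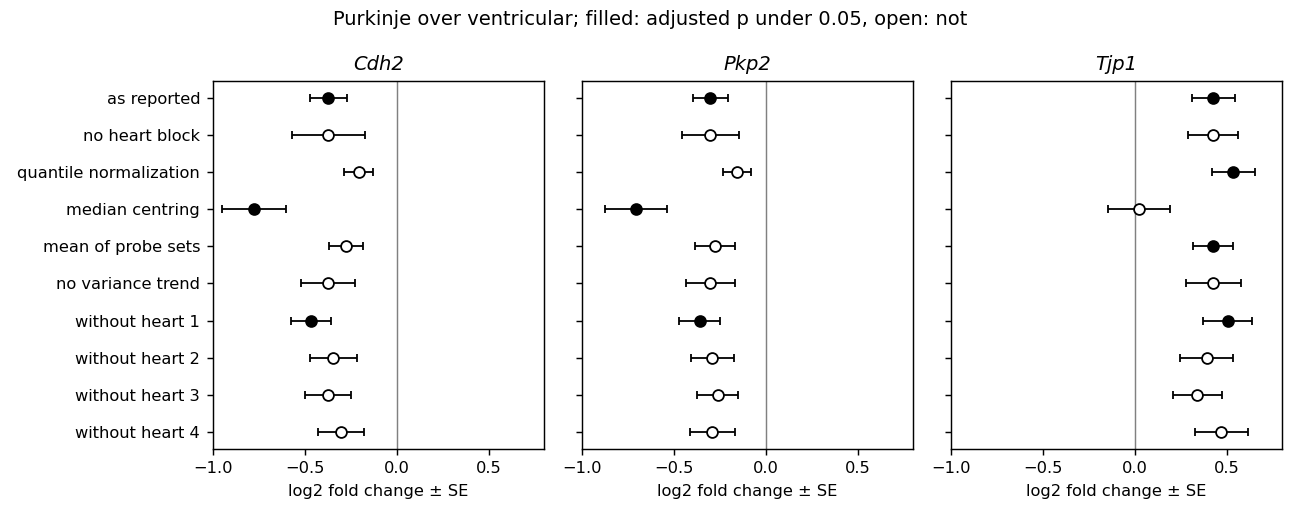
Log2 fold change ± SE of Cdh2, Pkp2 and Tjp1 as reported and under 9 alternatives, with filled points for an adjusted p under 0.05. Points of Cdh2 and Pkp2 stay below 0 and those of Tjp1 above 0, and the points without heart 2, 3 or 4 and without the heart block are open in all 3 genes.

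Genes that work with these members were read from the same fit. Over all tested genes 9.64% were higher and 7.48% lower, 12.7% had groups that did not overlap, and the median log2 fold change was 0.05. The intermediate filament gene Des was lower, at 2550 ± 279 in Purkinje cells and 3455 ± 624 in ventricular myocytes, with no overlap (log2 fold change -0.43 ± 0.10, limma adjusted p = 0.0117, and 0.110 without the block). Des was listed with the other desmosomal genes although it encodes a filament, and it was the 1 of 4 tested genes of that list that passed. Pkp4 (0.16), Perp (-0.29, adjusted p = 0.0719) and Evpl did not pass, and Pkp1, Pkp3, Dsg1a, Dsc1, Dsc3, Ppl and Kazn were too dim to be tested.

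Of 18 other adherens junction genes 5 were higher and 1 lower in Purkinje cells, beside 9.64% and 7.48% of all tested genes. The median log2 fold change was 0.22, beside 0.05 over all tested genes. The count of 5 and the median include Plekha7, whose limit is given below. The higher genes included Nectin3, a nectin that forms contacts beside cadherins, at 242 ± 57.2 in Purkinje cells and 143 ± 40.5 in ventricular myocytes, with no overlap (0.78 ± 0.20, limma adjusted p = 0.0225). Afdn, which encodes afadin, the protein that ties nectins to actin, had a log2 fold change of 0.71 ± 0.18 (adjusted p = 0.0203). Plekha7, whose product joins catenin delta-1 at adherens junctions, had 19.7, 59.5, 226.3 and 143.9 on Purkinje arrays 1 to 4 and 19.0, 3.1, 20.4 and 15.1 on ventricular arrays 1 to 4. Heart 1 showed almost no difference, and since the ventricular mean of 14.4 lies under the signal limit of 19.9, the gene reached the test only through the Purkinje arrays and no fold is given. The fifth, Ctnnd1, which encodes catenin delta-1, had 0.54 ± 0.14 (adjusted p = 0.0212), and the lower gene was Vcl, which encodes the actin-binding vinculin (-0.44 ± 0.12, adjusted p = 0.0223); both were named after their values were seen. Cdh5, the endothelial cadherin gene and a marker in the endothelial list, was the other higher gene (1.87 ± 0.30) and the 1 of the 6 that also passed without the heart block (adjusted p = 0.0482). Ctnnb1, which encodes beta-catenin, gave 0.10 (adjusted p = 0.476).

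Of 16 other intercalated disc genes 4 were higher and 2 lower, with a median log2 fold change of -0.18. Over all tested genes these were 9.64%, 7.48% and 0.05. The higher ones were the connexin genes Gja5 (4.40) and Gjc1 (1.43) and the LIM domain genes Pdlim3 (1.88 ± 0.20, adjusted p = 0.000285) and Zyx (0.90 ± 0.18, adjusted p = 0.00588). Pdlim3, an actinin partner, averaged 514 ± 121 in Purkinje cells and 140 ± 33.1 in ventricular myocytes. The lower ones, named after their values were seen, were Gja1, which encodes the main ventricular connexin (-0.26 ± 0.08, adjusted p = 0.0459), and the ankyrin gene Ank2 (-0.43 ± 0.12, adjusted p = 0.0334). Gja5, Gjc1 and Pdlim3 also passed without the block. Of 10 tight junction and related genes 3 were higher and none lower in this limma fit, with a median of 0.44. The median includes Cgn, which did not pass. The ventricular mean of Cgn, 18.05, lies under the signal limit, so it reached the test only through the Purkinje arrays. The 3 higher genes were Esam (1.44 ± 0.21), also in the endothelial list, Jam3 (1.38 ± 0.34), an adhesion gene whose groups did not overlap, and Cldn5 (0.74 ± 0.23), a claudin of endothelial tight junctions. Without the block Jam3 was the 1 that passed (adjusted p = 0.0439, against 0.133 for Esam and 0.351 for Cldn5).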

How the data were processed

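RNA of sorted cells was amplified and hybridised to Affymetrix mouse arrays. The deposited intensity signals come from MAS5 (no version given), as the submitters' processing notes state; replicates were not pooled, and the values show a trimmed mean of 150.001 on every array. The authors' deposited table also holds a ratio of group means and an unadjusted p-value, which a paired two-sided test of linear signals matched to within 5e-10. The second deposited table held the same signals.

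Of 45101 probe sets, 64 controls and those naming several genes or none were left out. A gene was represented by its brightest probe set (mean log2 over the 8 arrays) and tested where that mean exceeded the 40th percentile over probe sets (log2 4.31, a signal of 19.9). Signals were not normalized further, and 10 zeros were set to 0.1. The tool was limma 3.58.1 (R 4.3.3) with an intensity trend in eBayes, two-sided, Benjamini-Hochberg adjusted, and the heart as a block. The pairing comes from the series design, which names 4 hearts, and from the deposited paired p; array deviations within a heart correlated at 0.38, 0.23, 0.27 and 0.27. Arrays of different hearts also correlated within hearts 1 and 2 (0.090 and 0.20) and within hearts 3 and 4 (0.21 and 0.23), and below 0 between these pairs of hearts. With 4 arrays a group, their number limits the precision.

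On simulated data with the heart effects of 12318 genes, the test found 69 of 100 genes at 2-fold and 95 of 100 at 4-fold, and called 10 unchanged genes. The noise was independent between genes, and a smaller share of genes was changed than the 17.1% that passed in the data. Changes under 2-fold were not simulated, so no rate is given for changes as small as those of the junction genes. The members, lists and tests were chosen with earlier results of these data known. Named genes are all members, up to 4 passing genes of each other list with the largest change, 5 genes that check the labels and the brightest marker of each list. Alternatives were no block, quantile normalization, median centring, other filters, averaging the probe sets of a gene, 16 or 64 added to signals, array weights, a variance model with no trend or a robust one, the authors' paired test, and leaving out each heart.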

Additional observations from a re-analysis of the deposited data

Results flagged for a closer look

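At the Dsg2 probe set 1449741_at ventricular array 2, at 706.8, lay far above the other ventricular arrays, at 333.8 to 393.5, while the Purkinje arrays lay at 415.3 to 570.1. The gap to the nearest array was 0.840 of the range of the 4 ventricular arrays, past the 95% limit of Dixon's test. Of 58 groups of 4 arrays examined this was the 1 past the limit, which chance passes in about 5% of groups.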

How the results depend on the processing

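The 2108 genes called over all genes became 365 without the replicate block, which uses no pairing, and 4500 after median centring (688 higher and 3812 lower, against 1187 and 921). They became 139 without a variance trend and 0 in the authors' paired test with Benjamini-Hochberg adjustment, where 2617 had an unadjusted p under 0.05. Leaving out 1 heart gave 811 to 2415. The 3 junction genes that passed became 0 without the block, without the trend and in the paired test (1, 2 and 3 at an unadjusted p under 0.05), 5 after median centring, and 0 to 4 without 1 heart. Their 7 passing probe sets became 0 in the same 3 fits, 12 after centring (1 higher and 11 lower, against 3 and 4) and 1 to 9 without 1 heart. The 16 other junction genes became 5 without the block, 3 without the trend, 0 in the paired test (17 at an unadjusted p under 0.05) and 6 to 22 without 1 heart, and their 12 higher and 4 lower became 7 and 13 after centring. The counts of the 3 named sets under the other alternatives stayed within 1.5 times; those of quantile normalization were 2 junction genes, 5 probe sets (4 higher and 1 lower) and 11 other junction genes (10 higher and 1 lower), and averaging the probe sets of a gene gave 2 junction genes, both higher. Over 16 alternatives Cdh2 passed in 8 (adjusted p from 0.00153 to 0.295), Pkp2 in 7 (0.00253 to 0.284) and Tjp1 in 9 (0.0154 to 0.936), and none of the 3 changed sign.

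Genes and probe sets that changed sign had not passed. After median centring Ctnna1 was at -0.32 and its probe set 1448149_at at -0.29, Jup at -0.37 and Dsg2 at -0.37. On the same scale the Dsg2 probe sets 1460380_at, 1449741_at, 1449740_s_at, 1439476_at and 1426153_a_at were at -0.14, -0.28, -0.29, -0.32 and -0.23, Dsc2 1421156_a_at at -0.10, Pkp2 1460511_at at -0.17, and Cxadr 1452391_at and 1449949_a_at at -0.34 and -0.38. After quantile normalization Dsp was at 0.084, its probe set 1435494_s_at at 0.030, Pkp2 1460511_at at -0.090, and Cxadr 1449949_a_at and 1452391_at at -0.11 and -0.071. The mean of its probe sets put Cxadr at 0.17, and with 64 added Ctnna3 1441193_at was at 0.012. Leaving out 1 heart gave -0.13 to 0.17 for Dsg2, -0.036 to 0.099 for Jup, -0.31 to 0.25 for Ctnna3 1441193_at, -0.013 to 0.19 for Dsg2 1439476_at, and -0.069 to 0.13 and -0.060 to 0.16 for Cxadr 1449949_a_at and 1452391_at. Centring subtracts 1 value from all log2 signals of an array, so it moved every log2 fold change by the same amount. The median over all tested genes went from 0.05 to -0.35 with it. These sign changes after centring are therefore 1 common offset and not separate gene results. The cause of the other shifts was not tested. Signals near the limit of 19.9 carry little information about fold size.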
